A study of Mus musculus with 16 samples.

Results

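Inguinal white adipose tissue (WAT), the fat pad under the skin of the groin, was compared between mice housed at 5 °C and mice housed at 30 °C, with 4 RNA libraries in each group. These 8 libraries were chosen by tissue and housing temperature and are 8 of the 16 in the study, the others being from brown fat. By the labels the mice were female C57BL/6 wild type and 16 weeks old. The sex-linked reads of a library described below do not match that label. All mice had been bred and raised at 30 °C, a temperature at which a mouse spends no extra energy on heat. The group called WAT_30C stayed there. The group called WAT_5C left 30 °C at 10 to 12 weeks of age, spent 2 weeks at 18 °C, and was kept at 5 °C for the last 3 weeks. All animals went without food for 2 to 3 h before collection. Poly(A)-selected RNA was sequenced, and read counts per gene were compared. The labels name no transgene or drug. Whether every library had a mouse of its own is not stated in the labels. The p-values set the difference between the groups only against the spread among the libraries of a group.

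White fat stores triglyceride, and the inguinal depot is known for acquiring heat-making "beige" adipocytes during cold exposure. Sympathetic nerves release noradrenaline, which acts through β-adrenergic receptors and cyclic AMP in the fat cell. Lipolysis then frees fatty acids, and the uncoupling protein Ucp1 lets mitochondria turn the fuel into heat instead of ATP. Glucose uptake, fatty acid synthesis and triglyceride rebuilding are known to run beside that breakdown in cold-adapted fat. The pad also holds a lymph node and, in female mice, mammary epithelium.

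Depth was 57468307 to 71289020 counts per library. Fat cell markers such as Adipoq and Lpl were present in all 8 libraries, but WAT_5C replicate 1 stood apart from the other 7. It held 3 counts of Xist, an RNA that coats the inactive X in female cells, where the other libraries held 55016 to 88934, and 17183 counts over 4 Y-linked genes against 27 to 45, although its label, like the others, says female. Its summed level of 18 mammary epithelium markers was 27.3 CPM (counts scaled to equal depth) against 1510 to 2417 CPM, with 17 of the 18 lowest in it and Krt17 at 0 counts. In WAT_5C replicate 1 the 16 markers of T and NK cells summed to 208 CPM, where the others had 751 to 1443 CPM, while 19 adipocyte genes summed to 85760.5 CPM against 20129.8 to 36173 CPM. This library was also lowest for summed markers of B cells (989.5 against 1870.3 to 2963.6 CPM) and of macrophages and myeloid cells (1538.9 against 1764.6 to 3048.5 CPM). It was highest for endothelial markers (1357.7 against 823.0 to 998.0 CPM). Its score on principal component 1 (58.4% of the variance) was 118, with the other 7 between -41.8 and 0.48. Main results are therefore given from 2 fits, with all 8 libraries and with the 7 that remain without WAT_5C replicate 1. A fold change given without naming a fit is from the 7 libraries. Only 12 genes, all named below, passed with all 8. "Rose" and "fell" refer to the 7-library fit unless the other is named. CPM are listed in the order of replicates 1 to 4 on a single scale, so the first WAT_5C value in each list is the library that stood apart. In tissue RNA, fewer cells of a type and less RNA per cell cannot be told apart.

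**Figure D1:**
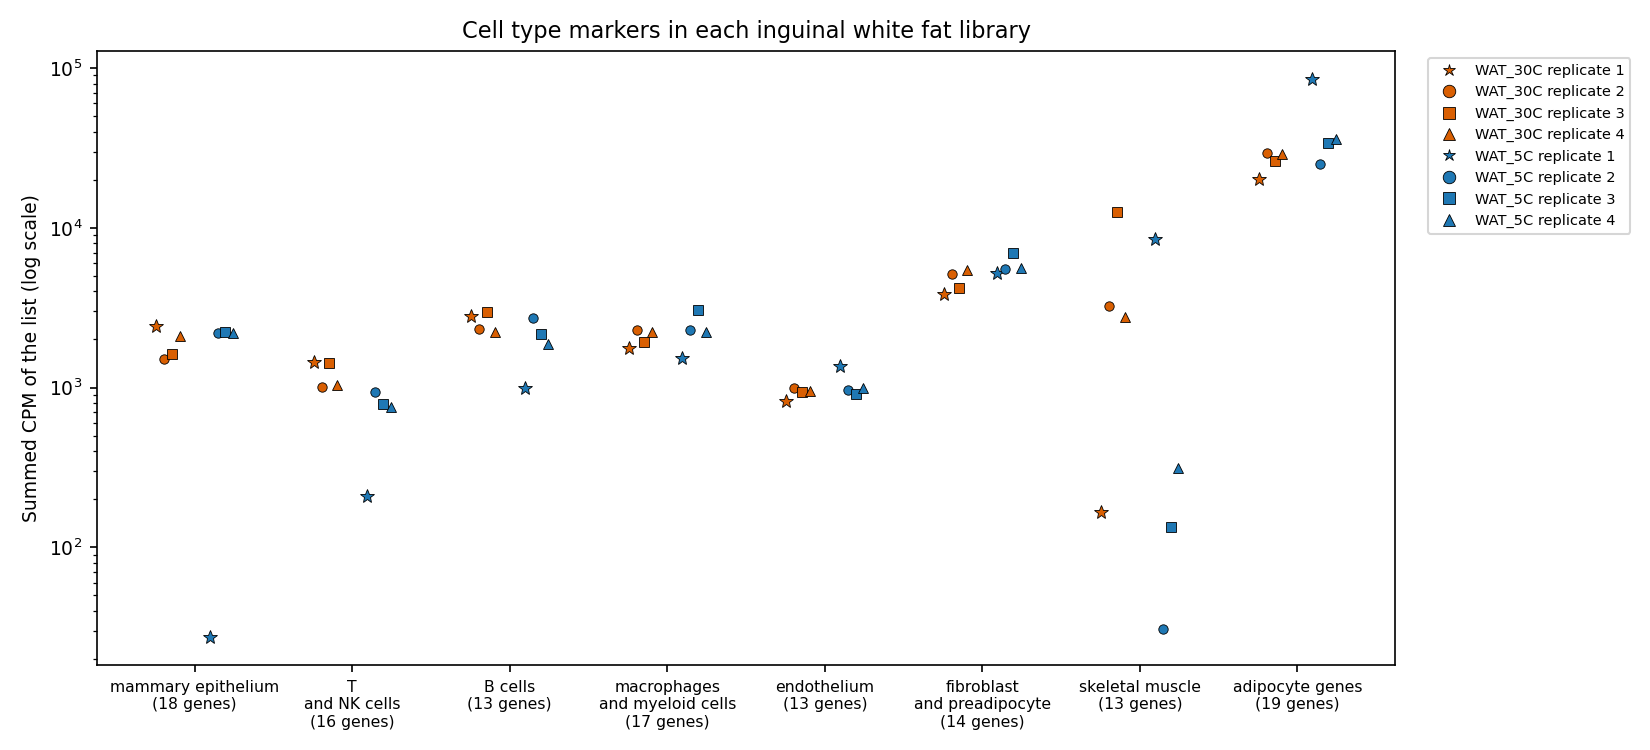
Summed CPM of the markers of 7 cell types and of 19 adipocyte genes in each library, on a log scale. Orange marks WAT_30C, blue marks WAT_5C and the shape marks the replicate. WAT_5C replicate 1 (blue star) lies below the other 7 libraries for mammary epithelium, T and NK cells, B cells, and macrophages and myeloid cells. It lies above them for endothelium and adipocyte genes, and skeletal muscle ranges widely within both groups.

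Skeletal muscle RNA also differed between libraries. The 13 muscle markers summed to 165, 3228, 12577 and 2776 CPM in WAT_30C and to 8510, 30.9, 134 and 313 CPM in WAT_5C. Leaving out replicate 1 therefore leaves the muscle markers high in 3 of 4 libraries at 30 °C and low in all 3 at 5 °C. Genes that muscle shares with fat are given below with that in view.

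More genes passed the test with higher than with lower levels at 5 °C, by a margin that differed between tests. With 7 libraries, 408 of 19320 genes passed an adjusted p of 0.05 (2.11%), of which 355 rose (1.84%) and 53 fell (0.274%), and 212 of the 408 differed by 2-fold or more (1.1% of genes tested). The 1.84% and 0.274% are the shares to set beside the list counts of that fit below. At an unadjusted p under 0.05 the same fit had 2351 higher and 2132 lower genes. DESeq2 called 1434 higher and 973 lower, limma-voom 1250 and 721, edgeR with the replicate block 307 and 192, and edgeR without WAT_30C replicate 1 gave 202 and 180. With all 8 libraries, 12 of 18975 genes passed (0.0632%), all of them higher at 5 °C, and 0.058% of genes passed with a fold of 2 or more. For lower genes that fit gave 0 calls by edgeR, where 1286 genes had an unadjusted p under 0.05, DESeq2 called 276 and limma-voom 876. Libraries of the groups did not overlap for 10.6% (higher at 5 °C) and 8.76% (lower) of genes with 7 libraries, and for 7.3% and 6.71% with 8. All 12 genes were also among the 408, in the same direction. The median log2 fold change over all genes was -0.01 and -0.02 in the 8- and 7-library fits, and scaling to library totals moved it to -0.27 and -0.16. With that scaling the 7-library split was 225 higher and 88 lower, and the 8-library split 73 higher and 9 lower.

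The number of calls rested on single libraries. From the 7 libraries it was 15 without WAT_5C replicate 3, 11 without WAT_5C replicate 4 and 847 without WAT_5C replicate 2, and 382, 160, 154 and 110 without WAT_30C replicates 1, 2, 3 and 4. From the 8 libraries it was 273 without WAT_5C replicate 2, 1 without WAT_30C replicate 1, and 0 without any one of WAT_30C replicates 2, 3 and 4 or WAT_5C replicates 3 and 4. Of the 408 genes, 405 were also called by DESeq2 and 402 by limma-voom in the same direction. In each of the 7 fits that left out 1 more library, 8 genes stayed called: Agpat2, Hephl1, Mup3, Ptger3, Tmem79, Ptges, Gde1 and Ppp2r5b, the last 3 named after their values were seen. Every other call named below was lost in at least 1 of those fits.

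**Figure D2:**
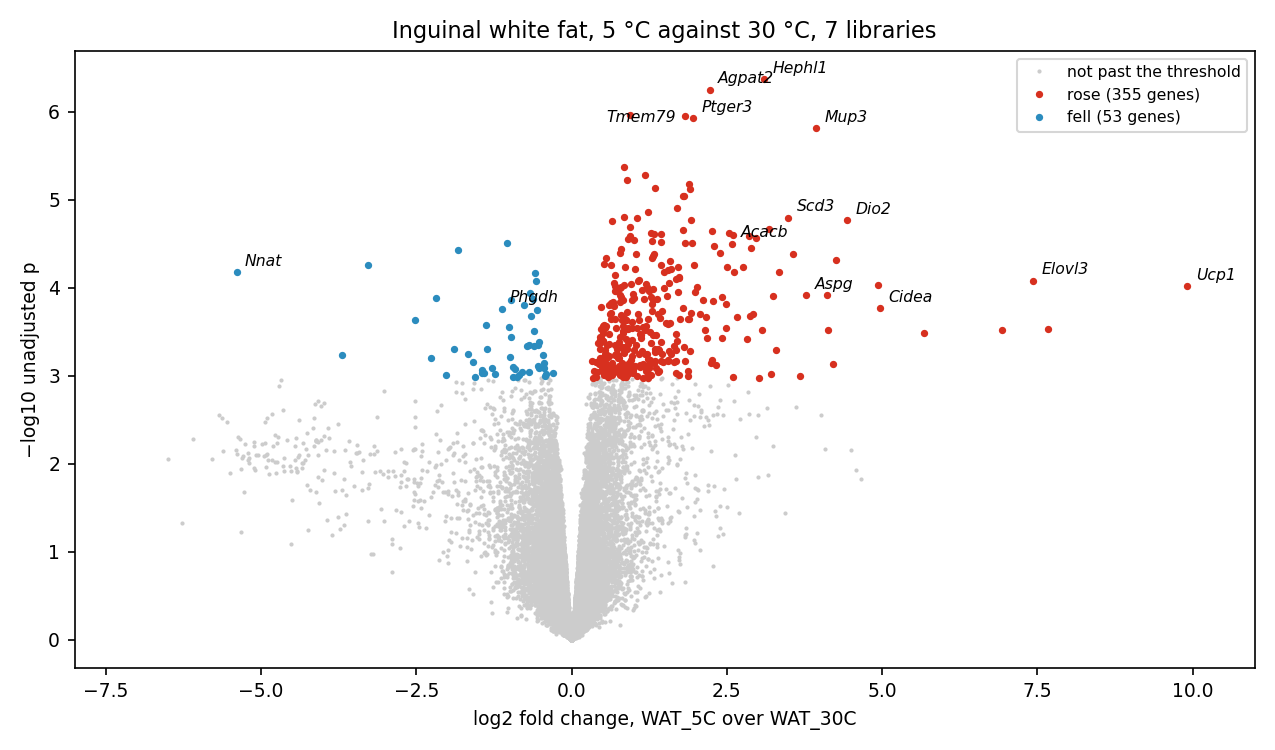
The log2 fold change of each of 19320 genes, 5 °C over 30 °C, against its −log10 unadjusted p in the 7-library fit. Red points are the 355 genes that rose and blue points the 53 that fell. Ucp1 and Elovl3 lie farthest right among the labelled genes and Nnat farthest left.

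The genes that passed in both fits began with Agpat2 (ENSMUSG00000026922), the enzyme that forms phosphatidic acid for triglyceride. It stood at 140.0, 165, 179 and 184 CPM in WAT_30C and at 1697, 613, 831 and 912 CPM in WAT_5C. Every WAT_5C library was above every WAT_30C library, and the log2 fold change was 2.23 ± 0.16 (SE, adjusted p = 0.00457) with 7 libraries and 2.60 ± 0.32 (SE, adjusted p = 0.0465) with 8. Hephl1 (ENSMUSG00000031936), a multicopper ferroxidase that oxidises iron, went from 1.44, 2.13, 1.14 and 1.40 CPM to 29.7, 12.7, 12.6 and 14.3 CPM, up by 3.11 ± 0.21 (SE, adjusted p = 0.00457) on the log2 scale. Its relative Heph (ENSMUSG00000031209) fell in the same fit, and the 2 were the only calls among 20 iron and copper genes. Heph stood at 43.8, 58.2, 46.9 and 71.3 CPM and 87.4, 29.2, 25.8 and 32.7 CPM, and fell by 0.92 ± 0.18 on the log2 scale (SE, adjusted p = 0.0473) without replicate 1. WAT_5C replicate 1 had the highest Heph value of all, and with it the log2 fold change was -0.33 ± 0.40 (SE, adjusted p = 0.649). Mup3 (ENSMUSG00000066154), a major urinary protein, went from 0.885, 0.465, 1.27 and 0.731 CPM to 9.05, 9.75, 15.5 and 13.3 CPM, up by 3.94 ± 0.32 (SE, adjusted p = 0.00495). The major urinary protein genes are near-identical copies, so how reads were split among them is uncertain.

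Genes of prostaglandin E2 were among the 8 that stayed called. Ptger3 (ENSMUSG00000040016), the EP3 receptor for prostaglandin E2, stood at 22.4, 34.4, 31.3 and 28.4 CPM in WAT_30C and at 134, 104, 105 and 132 CPM in WAT_5C. It rose by 1.96 ± 0.15 (SE, adjusted p = 0.00457) on the log2 scale with 7 libraries and by 2.03 ± 0.16 (SE, adjusted p = 0.0177) with 8. Ptges, which makes prostaglandin E2, went from 72.3, 64.2, 71.4 and 66.5 CPM to 248, 127, 119 and 168 CPM (1.0 ± 0.12, SE, adjusted p = 0.0145 on the log2 scale with 7 libraries). Neither gene's groups overlapped in either fit. The remaining genes that passed with all 8 libraries were Dio2, Tmem79, Slc25a48, Fam69b, Prune2, AA914427, Fads2, which desaturates polyunsaturated fatty acids, and Gclm, the regulatory subunit of the enzyme that starts glutathione synthesis. Gclm changed least, from 38.6, 43.8, 43.1 and 44.3 CPM to 75.6, 63.4, 67.7 and 69.5 CPM.

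Dio2 (ENSMUSG00000007682), which activates thyroid hormone inside the cell, stood at 0.581, 0.334, 0.307 and 0.455 CPM in WAT_30C and at 6.29, 3.79, 16.1 and 7.75 CPM in WAT_5C. The groups did not overlap, and the log2 fold change was 4.44 ± 0.50 (SE, adjusted p = 0.0145) with 7 libraries and 4.33 ± 0.50 (SE, adjusted p = 0.0407) with 8. The promoters of Dio2 and Hephl1 are shown because, of the 4 genes with the smallest adjusted p in a set of 62 fat genes (Hephl1, Agpat2, Mup3 and Dio2), they hold motif matches. Each run is the 250 bases before the start site from RefSeq (GRCm38.p6, minus strand), printed 5′ to 3′. Dio2 is at chr12:90739039-90739288 and Hephl1 at chr9:15112109-15112358. The build behind the counts is not given in the sources used here. Capitals mark TGACGTCA and TATAAA in Dio2, and CCAAT and the reverse complement of TATAAA in Hephl1.
Dio2: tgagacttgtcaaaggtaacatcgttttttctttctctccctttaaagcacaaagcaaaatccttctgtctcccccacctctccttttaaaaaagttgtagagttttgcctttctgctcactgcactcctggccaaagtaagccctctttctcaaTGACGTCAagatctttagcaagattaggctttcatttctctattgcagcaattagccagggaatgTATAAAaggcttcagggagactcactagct
Hephl1: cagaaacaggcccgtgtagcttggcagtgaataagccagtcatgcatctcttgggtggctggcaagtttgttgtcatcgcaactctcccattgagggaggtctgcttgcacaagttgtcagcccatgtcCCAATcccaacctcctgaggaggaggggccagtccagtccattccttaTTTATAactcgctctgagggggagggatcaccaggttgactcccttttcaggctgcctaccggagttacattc
The Dio2 run holds TGACGTCA, the full cyclic AMP response element, starting 95 bases before the start site, and TATAAA starting 30 bases before it. TGACGTCA reads the same on both strands and holds the shorter TGACG on each. The Hephl1 run holds CCAAT starting 121 bases before the start and the TATAAA match starting 73 bases before it. The Agpat2 and Mup3 promoters held none of the motifs searched on both strands. These were TGACGTCA, the shorter site TGACG, the motif CCAAT, the motif TATAAA and the nuclear receptor repeat DR1. TGACGTCA was in 439 of 27025 promoters of that length (1.62%) and in 3 of the 269 promoters of genes that rose (1.12%). TGACG was in 17.9% and 22.7%, CCAAT in 34.5% and 40.9%, TATAAA in 13.0% and 6.32%, and the DR1 repeat in 0.037% and 0.0%. A match is a run of letters and not a measured binding site.

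Most heat-making genes rose in the 7-library fit. Of the 19 thermogenic genes tested, 12 rose and none fell, where 1.84% of all genes rose, and their median log2 fold change was 2.25 against -0.02 for all genes. With all 8 libraries the median was 2.80, and 1 gene passed, Dio2. Ucp1 (ENSMUSG00000031710) stood at 0.225, 0.116, 0.445 and 0.195 CPM in WAT_30C and at 90.5, 8.27, 534 and 172 CPM in WAT_5C. The 4 WAT_5C values span a wide range and all lie above the WAT_30C values. The log2 fold change was 9.92 ± 1.40 (SE, adjusted p = 0.0208) with 7 libraries and 9.67 ± 1.40 (SE, adjusted p = 0.0639) with 8. Elovl3 (ENSMUSG00000038754), which elongates fatty acids of very long chains, went from 0.0528, 0.668, 0.353 and 0.0163 CPM to 20.9, 8.39, 88.2 and 46.1 CPM. Its log2 fold change was 7.43 ± 1.03 (SE, adjusted p = 0.0201) with 7 libraries and 7.22 ± 1.15 (SE, adjusted p = 0.0720) with 8.

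Cidea (ENSMUSG00000024526), a lipid droplet protein of brown fat, stood at 2.21, 2.28, 8.0 and 2.27 CPM and 280.0, 28.2, 215 and 101 CPM, a rise of 4.96 ± 0.76 (SE, adjusted p = 0.0246) on the log2 scale. WAT_30C replicate 3 was the highest of its group and still below the lowest WAT_5C library. Otop1 (ENSMUSG00000051596), a proton channel, went from 0.885, 0.160, 1.32 and 0.877 CPM to 71.5, 8.08, 41.5 and 25.1 CPM (4.94 ± 0.69, SE, adjusted p = 0.0207 on the log2 scale). Kcnk3 (ENSMUSG00000049265), a potassium channel of brown and beige adipocytes, went from 14.2, 19.1, 24.8 and 14.0 CPM to 152, 31.4, 88.8 and 72.2 CPM (1.83 ± 0.34, SE, adjusted p = 0.0454). Cox8b, a subunit of complex IV found in brown fat and muscle, rose by 2.49 on the log2 scale and Plin5, which ties the lipid droplet to mitochondria, by 2.25. The other members that rose were Slc27a2, Acot11, Pank1 and Slc25a20. The 8-library fit gave Cidea 5.40 (adjusted p = 0.0704) and Otop1 5.49 (adjusted p = 0.0698) on the log2 scale. Kcnk3 was at 2.26 in that fit (adjusted p = 0.112).

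Not every gene of the list passed. Ppargc1a (ENSMUSG00000029167), the coactivator that drives mitochondrial biogenesis, stood at 4.59, 7.66, 7.72 and 7.80 CPM and 28.0, 9.62, 12.9 and 10.5 CPM. Its groups did not overlap, but the log2 fold change of 0.66 ± 0.20 (SE, adjusted p = 0.116) missed the threshold. Adrb3 (ENSMUSG00000031489), the β3-adrenergic receptor of fat cells, stood at 195, 449, 396 and 367 CPM and 884, 228, 287 and 322 CPM. The groups overlapped, and the log2 fold change was -0.34 ± 0.27 (SE, adjusted p = 0.476) with 7 libraries and 0.29 ± 0.46 (SE, adjusted p = 0.737) with 8. Cpt1b, the muscle and brown fat form of the enzyme that admits fatty acids to mitochondria, differed by 1.37 ± 0.71 (SE, adjusted p = 0.286). Fgf21 was too low to test, with 9 counts over the WAT_30C libraries and 52 over WAT_5C.

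The 4 cold libraries kept a common order across these genes. WAT_5C replicate 2 was the lowest of the 4 for 19 of 19 thermogenic genes, and among replicates 2 to 4, replicate 3 was the highest for 18 of 19. Replicate 1 was the highest of the 4 for 13 of the 19. Of the 12 calls, none was left without WAT_5C replicate 4 and 1 gene was called without WAT_5C replicate 3, while 14 were called without WAT_5C replicate 2. Without WAT_30C replicates 1, 2, 3 and 4 the counts were 7, 3, 5 and 1. The median stayed between 1.70 and 2.62 over the fits that each left out a further library.

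**Figure D3:**
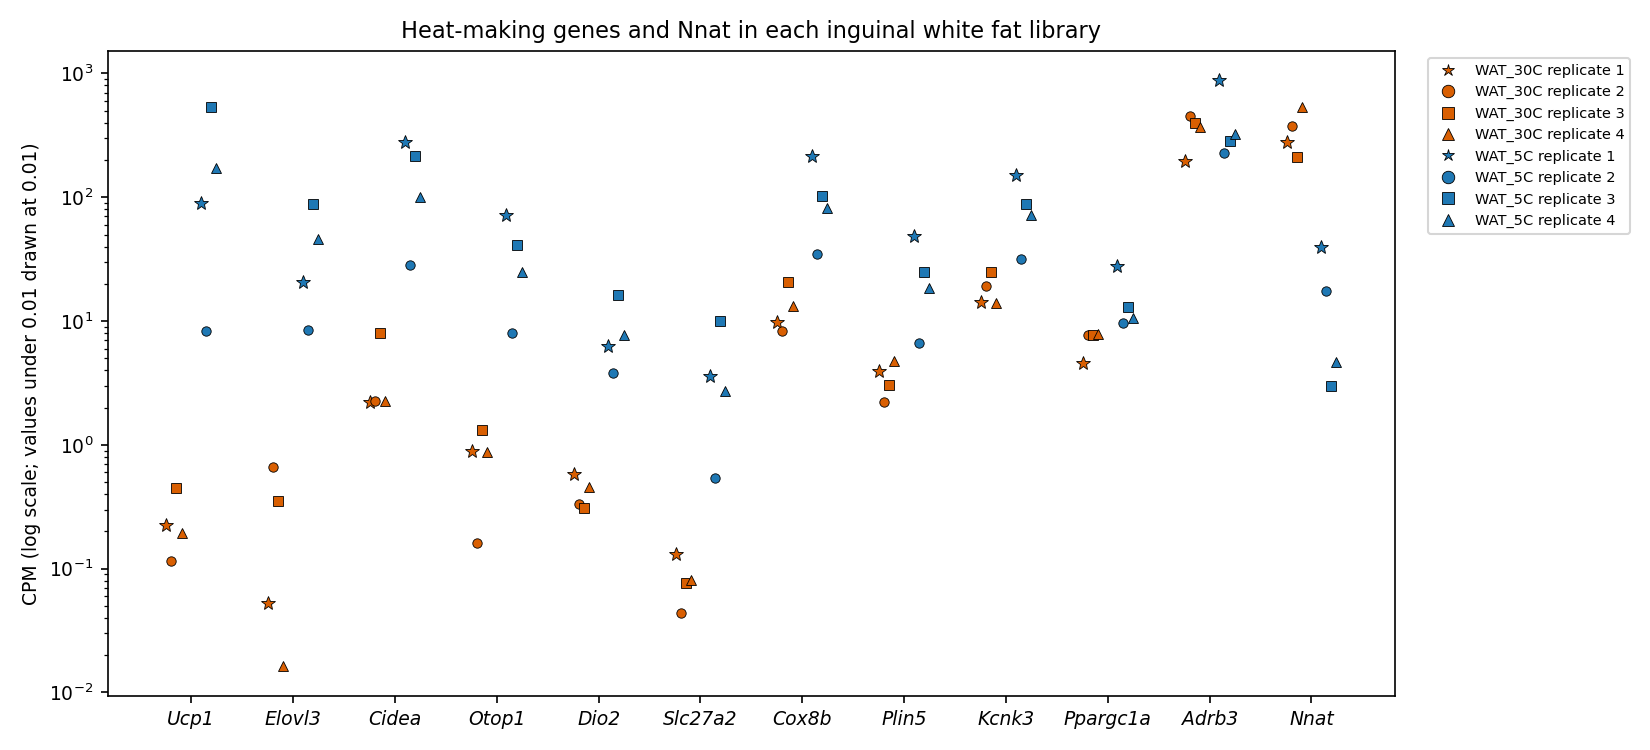
CPM of 11 thermogenic genes and of Nnat in each library, on a log scale. Orange marks WAT_30C, blue marks WAT_5C and the shape marks the replicate. The blue points lie above the orange ones for each gene from Ucp1 to Ppargc1a, the groups overlap for Adrb3, and the order is turned for Nnat.

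Upstream of Ucp1, 2 of 30 genes of the adrenergic and cyclic AMP list rose, where 1.84% of all genes did: Adcy10 (ENSMUSG00000026567), the soluble adenylyl cyclase, from 0.568, 1.32, 2.13 and 0.877 CPM to 20.1, 7.42, 13.6 and 16.1 CPM (3.33 ± 0.45, SE, adjusted p = 0.0178), and Sik1, a kinase whose gene responds to cyclic AMP, by 1.15 ± 0.23 (SE, adjusted p = 0.0499). WAT_5C replicate 1 had less Sik1 than any other library at either temperature, and with it the log2 fold change was 0.88 ± 0.40 (SE, adjusted p = 0.283). At an unadjusted p under 0.05, 5 were higher and 2 lower, and DESeq2 and limma-voom called 4 higher each. The list's median was -0.02, as for all genes.

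Among 30 transcription regulators of fat, Mlxipl alone passed by edgeR, where 1.84% of all genes rose, and the median was 0.14. At an unadjusted p under 0.05, 8 were higher and 2 lower. DESeq2 called 7 higher and 1 lower, and limma-voom 5 higher and 1 lower. Without overlap 9 were higher and 1 lower, where 10.6% and 8.76% of all genes were. Mlxipl (ENSMUSG00000005373) encodes ChREBP, which turns on sugar-responsive lipid synthesis genes, and went from 149.8, 147, 137 and 187 CPM to 476, 233, 284 and 356 CPM (0.90 ± 0.16, SE, adjusted p = 0.0390). Srebf1, the other main regulator of lipid synthesis, did not overlap between groups but missed the threshold at 0.48 ± 0.14 (SE, adjusted p = 0.112). Ppara, a regulator of fatty acid oxidation, stood at 2.29, 4.11, 1.60 and 2.37 CPM and 33.4, 4.36, 18.7 and 10.1 CPM, and differed by 2.08 ± 0.48 (SE, adjusted p = 0.0684) on the log2 scale. Pparg, the master regulator of fat cells, differed by 0.23 ± 0.31 (SE, adjusted p = 0.696), Prdm16 by 0.20 ± 0.18 (SE, adjusted p = 0.529) and Ebf2 by -0.05 ± 0.23 (SE, adjusted p = 0.920), with overlapping groups for each of these 3.

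Of 20 beige and brown lineage markers tested, 3 rose, where 1.84% of all genes did: the surface transporter Slc36a2, from 97.5, 143, 120.2 and 118 CPM to 558, 235, 339 and 335 CPM, the ATP receptor P2rx5, by 1.10 on the log2 scale, and Kcnk3, given above. The median of the 20 was -0.02, and 0.19 with all 8 libraries. At an unadjusted p under 0.05, 5 were higher and 4 lower. DESeq2 called 4 higher and 3 lower, and limma-voom 4 higher and 2 lower. Without overlap 3 were higher and 3 lower, where 10.6% and 8.76% of all genes were. The beige markers Tmem26 (-0.33 ± 0.18, SE, adjusted p = 0.310) and Tbx1 (-0.32 ± 0.32, SE, adjusted p = 0.572) did not pass. Zic1, a marker of classical brown fat, was too low to test, with 29 counts over WAT_30C and 21 over WAT_5C.

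White fat markers had a median of -0.59 without replicate 1 and -0.30 with it. By edgeR 1 of 14 fell, where 0.274% of all genes did. Without replicate 1, 6 were lower and 1 higher without overlap, where 8.76% and 10.6% of all genes were. At an unadjusted p under 0.05, 7 were lower and 1 higher. DESeq2 called 6 lower and 1 higher, and limma-voom 4 lower and 1 higher. The gene that fell by edgeR was Nnat (ENSMUSG00000067786), an imprinted proteolipid of the endoplasmic reticulum, at 282, 375, 212 and 532 CPM in WAT_30C and 39.3, 17.5, 2.98 and 4.63 CPM in WAT_5C. All 4 WAT_5C libraries lay below all 4 WAT_30C libraries. The log2 fold change was -5.39 ± 0.72 (SE, adjusted p = 0.0178) with 7 libraries and -4.45 ± 0.85 (SE, adjusted p = 0.111) with 8. Among the cold libraries Nnat was highest in WAT_5C replicate 1, and the call was lost without WAT_5C replicate 3 or 4. Lep, the satiety hormone leptin, stood at 98.8, 176, 82.6 and 253 CPM and 274, 78.2, 17.6 and 76.5 CPM. WAT_5C replicate 1 held the highest Lep value of the 8 libraries, and the log2 fold change was -1.42 ± 0.57 (SE, adjusted p = 0.189) without it and -0.45 ± 0.73 (SE, adjusted p = 0.744) with it. Resistin (Retn, log2 fold change 0.35) and adiponectin (Adipoq, log2 fold change -0.14) did not pass.

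Heat can also come from creatine and calcium cycling. By edgeR none of 16 genes of that list passed, 1 higher and 7 lower genes had an unadjusted p under 0.05, DESeq2 called 1 higher and 6 lower, and limma-voom 1 of each. Atp2a2, the calcium pump SERCA2, stood at 199, 193, 176 and 202 CPM and 282, 233, 252 and 255 CPM, without overlap (0.35 ± 0.08, SE, adjusted p = 0.0719). Ckb (log2 fold change 0.09) and Alpl (log2 fold change 0.20), both tied to creatine cycling in fat, overlapped. Ckmt2 stood at 0.423, 8.32, 14.8 and 4.47 CPM and 14.6, 0.0599, 0.334 and 1.08 CPM, high in the libraries where the muscle markers are high. The part of muscle RNA in the values of this list was not tested.

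Fatty acid synthesis genes rose as well. Of 25 genes tested, 19 rose and none fell without replicate 1, with a median log2 fold change of 1.47, and Elovl3 and Mlxipl, given above, are among the 19. With all 8 libraries 1 gene passed, Fads2, and the median was 1.84. Without WAT_5C replicate 4 the count was 0, without replicate 3 it was 2 and without replicate 2 it was 20. Without WAT_30C replicates 1, 2, 3 and 4 it was 14, 8, 15 and 6, while the median stayed between 1.28 and 1.71.

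Citrate leaves mitochondria through Slc25a1, which went from 225, 240.5, 405 and 234 CPM to 2135, 632, 1104 and 1394 CPM (1.92 ± 0.30, SE, adjusted p = 0.0265). Acly (ENSMUSG00000020917), which splits citrate into acetyl-CoA, went from 637, 678, 1192 and 825 CPM to 8602, 2761, 4626 and 5802 CPM (2.40 ± 0.30, SE, adjusted p = 0.0158 with 7 libraries, 2.71 ± 0.40 (SE, adjusted p = 0.0691) with 8). The acetyl-CoA carboxylases Acaca (ENSMUSG00000020532) and Acacb (ENSMUSG00000042010) make malonyl-CoA, which builds fatty acids and blocks their entry into mitochondria. Acaca went from 691, 962, 1287 and 862 CPM to 7634, 2347, 3229 and 3644 CPM (1.69 ± 0.23, SE, adjusted p = 0.0197). Acacb went from 68.2, 102, 156 and 108 CPM to 1438, 405, 751 and 808 CPM (2.59 ± 0.31, SE, adjusted p = 0.0145). No WAT_5C library overlapped WAT_30C for any of these 4 genes. The 8-library fit gave Slc25a1 2.25 (adjusted p = 0.0874) and Acaca 2.15 (adjusted p = 0.105) on the log2 scale. Acacb was at 2.97 in that fit (adjusted p = 0.0639).

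Fasn (ENSMUSG00000025153), which builds palmitate, stood at 3506, 4301, 8179 and 4007 CPM and 41038, 12299, 20063 and 23686 CPM (1.90 ± 0.34, SE, adjusted p = 0.0397), and WAT_30C replicate 3 was the highest of its group. Elongation of palmitate by Elovl6 (ENSMUSG00000041220) showed the same high WAT_30C replicate 3, with 144, 149, 414 and 130.1 CPM and 2705, 955, 1799 and 1852 CPM (2.88 ± 0.45, SE, adjusted p = 0.0271). Scd1 (ENSMUSG00000037071), the main desaturase of fat, stood at 4034, 8202, 11151 and 7323 CPM and 107298, 27878, 38305 and 45667 CPM (2.28 ± 0.34, SE, adjusted p = 0.0226). It held more reads than any other gene in all 4 WAT_5C libraries. The 8-library fit gave log2 fold changes of 2.28 for Fasn (adjusted p = 0.131) and 3.13 for Elovl6 (adjusted p = 0.0708). For Scd1 it gave 2.84 (adjusted p = 0.127). Thrsp, a protein that favours lipid synthesis, went from 459, 661, 753 and 632 CPM to 4808, 1614, 2321 and 2749.7 CPM (1.83 ± 0.22, SE, adjusted p = 0.0145). Scd2 rose by 1.18 and Scd3 by 3.49 on the log2 scale. Scd3 stood at 204 CPM in WAT_5C replicate 1 against 14.3, 26.6 and 24.9 CPM in the other 3, and the Scd genes are close copies whose reads may be split.

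Of the 25 genes, 6 did not pass, among them Srebf1 and G6pdx (0.83 ± 0.23, SE, adjusted p = 0.0956), the first enzyme of the NADPH-making pentose phosphate pathway. The later enzymes of that pathway, Pgd, Tkt and Taldo1, rose by 1.25, 1.47 and 0.92 on the log2 scale, and malic enzyme Me1, another source of NADPH, by 2.66. Among WAT_5C replicates 2 to 4, replicate 4 was the highest for 19 of the 25 synthesis genes, whereas replicate 3 was the highest for 18 of 19 thermogenic genes. Replicate 2 was the lowest of the 3 for 19 of the 25.

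Genes of sugar use ahead of fat synthesis rose in part. Of 25 genes of glucose uptake and glycolysis, 3 rose (median 0.55), where 1.84% of all genes did: the fructose transporter Slc2a5, from 4.66, 6.37, 15.5 and 5.54 CPM to 82.4, 29.6, 47.1 and 52.9 CPM (2.43 ± 0.42, SE, adjusted p = 0.0342), the phosphofructokinase Pfkl (1.23 ± 0.24, SE, adjusted p = 0.0463) and the enolase Eno1 (1.23 ± 0.24, SE, adjusted p = 0.0488). Slc2a4, the insulin-responsive glucose transporter GLUT4, stood at 87.9, 154, 141 and 131 CPM and 552, 175, 221 and 285 CPM. It did not overlap between groups but did not pass (0.81 ± 0.22, SE, adjusted p = 0.0881). Hk2, which traps glucose in the cell, differed by 0.80 ± 0.26 (SE, adjusted p = 0.121).

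Of 14 genes of pyruvate use, 6 rose, the median was 1.15, and 11 were higher without overlap, where 10.6% of all genes were. Both subunits of the mitochondrial pyruvate carrier rose: Mpc1 from 45.4, 50.9, 81.9 and 56.5 CPM to 493, 126, 221 and 266 CPM (1.80 ± 0.28, SE, adjusted p = 0.0248) and Mpc2 by 1.73 ± 0.24 (SE, adjusted p = 0.0197). The pyruvate dehydrogenase genes Dlat (1.71 ± 0.23, SE, adjusted p = 0.0174), Pdhb, Pdhx and Pdha1 rose as well. With replicate 1 included, Mpc1 was at 2.24 (adjusted p = 0.0948) and Mpc2 at 2.03 (adjusted p = 0.0708) on the log2 scale. Pdk4, the kinase that switches pyruvate dehydrogenase off, stood at 37.5, 48.0, 68.8 and 89.2 CPM and 624, 117, 448 and 184 CPM, higher without overlap, and missed the threshold (2.03 ± 0.46, SE, adjusted p = 0.0673). Without WAT_5C replicate 3 or 4 or WAT_30C replicate 4 none of the 14 passed, without WAT_30C replicate 2 only 1 did, and without WAT_5C replicate 2 there were 10.

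Glycogen genes split. Gys2 (ENSMUSG00000030244), the glycogen synthase best known from liver, went from 4.69, 4.09, 10.1 and 8.35 CPM to 154, 32.3, 59.2 and 59.8 CPM (2.89 ± 0.35, SE, adjusted p = 0.0153 with 7 libraries, 3.49 ± 0.54 (SE, adjusted p = 0.0704) with 8). Ppp1r3b, which targets a phosphatase to glycogen, rose by 2.02 ± 0.29 (SE, adjusted p = 0.0208), the branching enzyme Gbe1 by 1.40 and the phosphorylase Pygl by 1.46 on the log2 scale. These were the 4 of 18 tested genes that rose. The median of the list was 0.05, and 9 of the 18 fold changes were above 0. With all 8 libraries the median was 0.57 and 14 of the 18 were above 0. The muscle phosphorylase Pygm stood at 13.7, 179, 717 and 148 CPM in WAT_30C and at 541, 5.05, 9.13 and 18.8 CPM in WAT_5C, high where the muscle markers were high. The part of muscle RNA in the glycogen and glycolysis lists was not tested. Genes of insulin signalling gave 0 calls of 18 by edgeR, with 3 higher and 3 lower at an unadjusted p under 0.05, 1 higher and 2 lower called by DESeq2 and 1 of each by limma-voom.

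**Figure D4:**
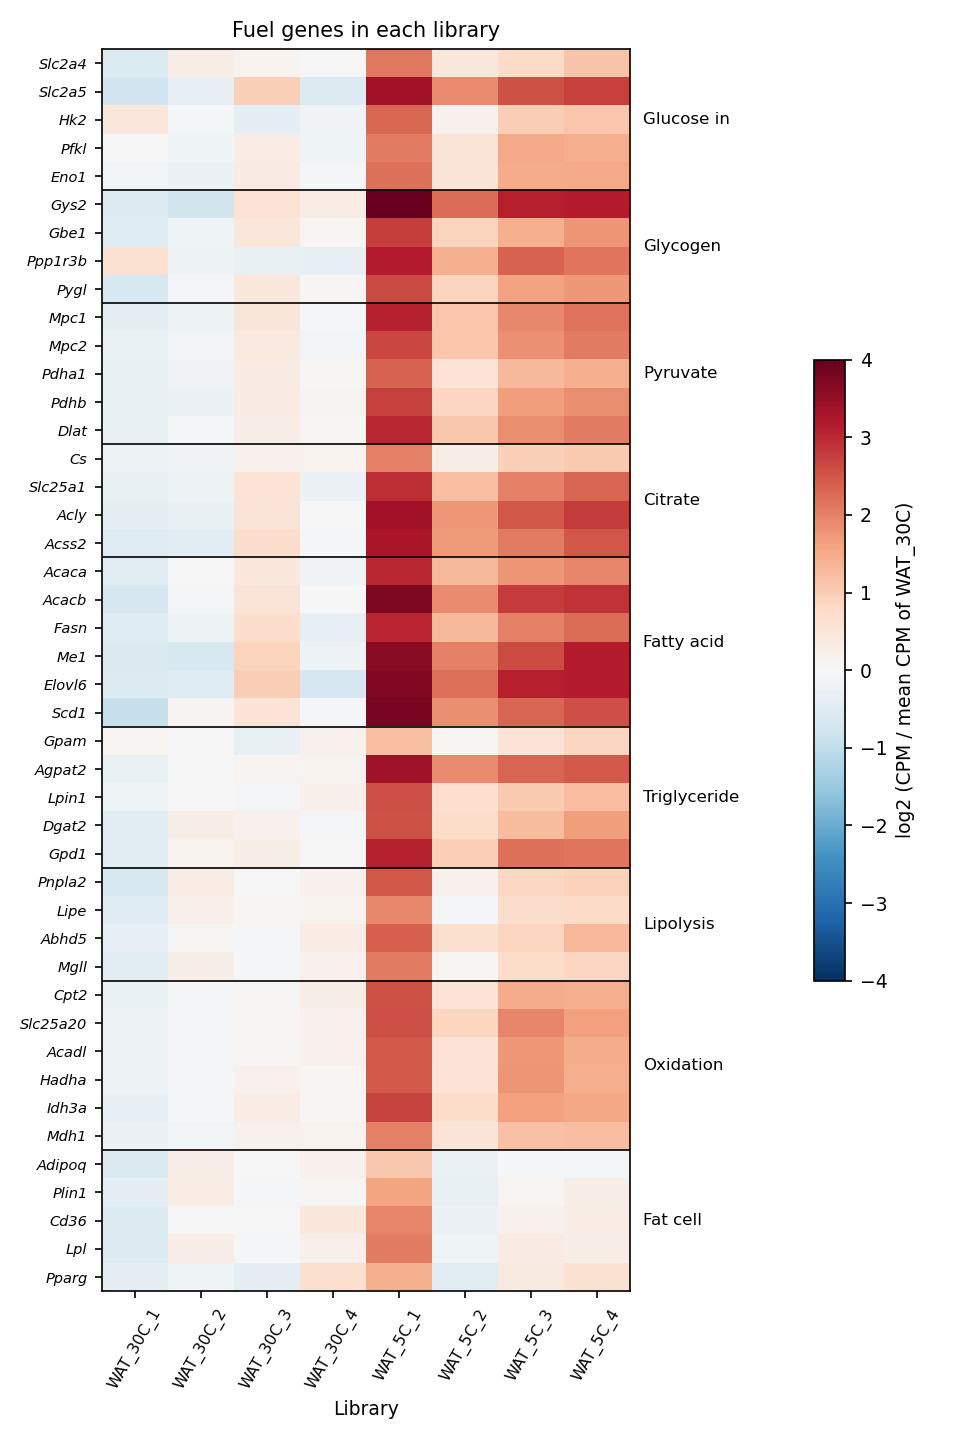
The log2 ratio of each gene's CPM to the mean CPM of WAT_30C, for 44 genes of sugar and fat use (rows, grouped by step) in the 8 libraries (columns). Red is above the mean of WAT_30C and blue below it. WAT_5C replicate 1 is the reddest column and replicate 2 the palest of the cold columns, and the bottom group of general fat cell genes is near 0 in WAT_5C replicates 2 to 4.

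Genes of single steps of triglyceride assembly rose. Of 20 genes, 5 rose and 1 fell (median 0.53), where 1.84% and 0.274% of all genes did. Beside Agpat2, these were Lpin1 (1.0 ± 0.14, SE, adjusted p = 0.0221), which dephosphorylates phosphatidic acid, Gpd1 (1.87 ± 0.30, SE, adjusted p = 0.0275) and Gpd2 (1.56 ± 0.25, SE, adjusted p = 0.0296), which link glycerol 3-phosphate to glycolysis, and Dgat2 (1.26 ± 0.24, SE, adjusted p = 0.0445), which adds the last fatty acid. Gpd1 stood at 269, 402, 434 and 362 CPM and 3083, 717, 1687 and 1625 CPM, and Dgat2 at 390.5, 607, 584 and 496 CPM and 3060.0, 858, 1243 and 1651 CPM, without overlap. With replicate 1 included, edgeR gave Gpd1 2.28 (adjusted p = 0.0951) and Dgat2 1.71 (adjusted p = 0.134) on the log2 scale. The first acylation step, Gpam, overlapped (0.52 ± 0.19, SE, adjusted p = 0.152). Gk, which recycles glycerol, stood at 9.77, 8.35, 9.12 and 9.52 CPM and 28.1, 10.7, 27.1 and 17.7 CPM and missed the threshold (1.0 ± 0.26, SE, adjusted p = 0.0862). Pck1, the start of glyceroneogenesis, overlapped between groups and was at 4743 CPM in WAT_5C replicate 1 against 632, 1341 and 914 CPM in the other 3. The gene that fell was the water and glycerol channel Aqp3 (-0.98 ± 0.17, SE, adjusted p = 0.0339), an epithelial gene that stood at 0.582 CPM in WAT_5C replicate 1, where the mammary markers are nearly absent.

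On the breakdown side, 4 of 19 genes of lipolysis and the lipid droplet rose (median 0.51), where 1.84% of all genes did: Plin2, a droplet coat protein, from 122, 136, 159 and 196 CPM to 929, 335, 626 and 566 CPM (1.73 ± 0.24, SE, adjusted p = 0.0194), Abhd5, the activator of the first lipase (0.97 ± 0.19, SE, adjusted p = 0.0473), Cidea and Plin5. The lowest fold change of the list was in Fitm1, a droplet protein best known from muscle, at 0.132, 2.02, 5.19 and 1.36 CPM and 3.69, 0.0150, 0.0796 and 0.309 CPM (-3.98 ± 1.23, SE, adjusted p = 0.115), which overlapped. The part of muscle RNA in it was not tested. The lipases did not pass. Pnpla2, the first lipase, stood at 506, 953, 768 and 881 CPM and 4377, 884, 1387 and 1486 CPM (0.68 ± 0.25, SE, adjusted p = 0.160). Lipe, the hormone-sensitive lipase, differed by 0.51 ± 0.24 (SE, adjusted p = 0.237), and G0s2, the inhibitor of Pnpla2, by -0.67 ± 0.46 (SE, adjusted p = 0.408). WAT_5C replicate 1 was the highest library for both lipases, and with it the log2 fold changes were 1.39 and 1.02.

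Lipid uptake gave 5 calls of 23 (median 0.55), all higher, where 1.84% of all genes rose. Slc27a1, a fatty acid transport protein, went from 237, 355, 339 and 284 CPM to 1406, 634, 1004 and 1038 CPM (1.55 ± 0.21, SE, adjusted p = 0.0178), and the acyl-CoA synthetase Acsl1 rose by 1.26 ± 0.21 (SE, adjusted p = 0.0312). The binding protein Fabp5 rose by 1.59, Apoc2, the activator of lipoprotein lipase, by 1.57, and Slc27a2 by 5.67 on the log2 scale. Lipoprotein lipase itself (Lpl) stood at 2031, 3596, 2883 and 3444 CPM and 12408, 2638, 3739.9 and 3539 CPM, overlapping between groups (0.14 ± 0.22, SE, adjusted p = 0.746). Its anchor Gpihbp1 (log2 fold change 0.11) and its inhibitor Angptl4 (log2 fold change 0.23) overlapped as well.

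Of 19 general fat cell genes, 3 rose once replicate 1 was left out, Gpd1, Acsl1 and Dgat2, with log2 fold changes of 1.87, 1.26 and 1.26, and the median of the 19 was 0.23, against 0.83 with all 8 libraries. Adipoq stood at 765, 1377, 1156 and 1292 CPM and 2439, 945, 1109 and 1079 CPM. WAT_5C replicate 1 was the highest cold library for 19 of 19 of these genes, and replicate 2 the lowest. The part of fat cell share in the 8-library values was not tested.

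A share of the fuel oxidation genes rose. In fatty acid oxidation 9 of 26 genes rose, where 1.84% of all genes did, none fell, and the median was 0.89. The carnitine carrier Slc25a20 went from 30.0, 33.1, 37.1 and 39.1 CPM to 209, 63.3, 135 and 108 CPM (1.54 ± 0.23, SE, adjusted p = 0.0221), and Acadl, which starts the oxidation of long chains, from 145, 164, 174 and 189 CPM to 922, 250.1, 559 and 475 CPM (1.34 ± 0.24, SE, adjusted p = 0.0405). Cpt2, which frees the fatty acid inside mitochondria, rose by 1.21, and Hadhb, a subunit of the trifunctional protein, by 1.55 on the log2 scale. In the TCA cycle all 18 fold changes were above 0 (median 0.75), and 3 genes rose, among them Idh3a, from 88.3, 105, 138 and 115 CPM to 719, 184, 349 and 326 CPM (1.36 ± 0.23, SE, adjusted p = 0.0326), and Mdh1 (1.01 ± 0.18, SE, adjusted p = 0.0390). Cs, the citrate synthase, was higher without overlap and did not pass (0.78 ± 0.19, SE, adjusted p = 0.0734). Without WAT_5C replicate 2, 17 of 26 oxidation genes and 17 of 18 TCA cycle genes passed. Without WAT_30C replicate 1, 1 gene of each list did, and none without any other library.

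Peroxisomal genes gave 6 calls of 25, all higher (median 0.58), where 1.84% of all genes rose. Among the 6 were the transporter Abcd3 (1.08 ± 0.17, SE, adjusted p = 0.0275), Pex16 (0.87 ± 0.14, SE, adjusted p = 0.0275), Pecr (0.93 on the log2 scale) and Pex5 (0.46). Breakdown of branched-chain amino acids gave 1 call of 21 by edgeR, the dehydrogenase subunit Bckdha (0.95 ± 0.18, SE, adjusted p = 0.0445), where 1.84% of all genes rose. At an unadjusted p under 0.05, 12 of the 21 were higher, and DESeq2 and limma-voom called 9 each.

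In the respiratory chain 2 subunits rose by edgeR, both in complexes III and IV, where 22 of 24 fold changes were above 0. All 36 complex I subunits had fold changes above 0, between 0.13 and 0.78 on the log2 scale, with a median of 0.50. By edgeR none passed, 29 had an unadjusted p under 0.05, and DESeq2 and limma-voom called 21 each. Of 24 subunits of complexes III and IV, Cox8b and Uqcr10 (0.87 ± 0.17, SE, adjusted p = 0.0476) rose (median 0.64). Cox8b is the brown fat and muscle form. Of the same 24, 22 were higher and 1 lower at an unadjusted p under 0.05. Without overlap 12 were higher and 2 lower, where 10.6% and 8.76% of all genes were. The 2 lower genes were Cox6a2, the heart and muscle form of a complex IV subunit, at 2.07, 12.2, 28.1 and 8.14 CPM and 15.1, 0.315, 0.621 and 1.30 CPM (-4.08 ± 0.91, SE, adjusted p = 0.0636), and Cox4i2 (log2 fold change -0.24). The muscle markers differ between the same libraries, and their part in this list was not tested. For complex V 0 of 16 passed by edgeR (median 0.40), with 11 at an unadjusted p under 0.05, 7 called by DESeq2 and 6 by limma-voom. Without WAT_5C replicate 2, 22 complex I, 20 complex III and IV and 6 complex V genes passed.

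Genes of the mitochondrial genome had a median of 0.66, and none of 13 passed by edgeR, with 8 at an unadjusted p under 0.05 and 6 called by DESeq2 and by limma-voom. Their share of all counts was 3.19 to 4.18% in WAT_30C, 9.59% in WAT_5C replicate 1 and 4.04 to 5.66% in the other 3. Of these, mt-Co1, a core subunit of complex IV, stood at 10654, 10858, 12303 and 14140.5 CPM and 54036, 15124, 22844 and 23044 CPM (0.76 ± 0.20, SE, adjusted p = 0.0898). Copies of mitochondrial genes in the nuclear genome may share its reads. Proteins of the mitochondrial ribosome had a median of 0.19. Among 40 of them edgeR called none, 16 had an unadjusted p under 0.05, DESeq2 called 9 and limma-voom 8. Of 28 genes of mitochondrial upkeep, 3 rose (median 0.16): Tfb2m, a transcription factor of mitochondrial DNA (0.47 ± 0.08, SE, adjusted p = 0.0304), the importer Timm23 (0.70 ± 0.12, SE, adjusted p = 0.0374) and Letm1 (0.98 ± 0.18, SE, adjusted p = 0.0421).

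Of 22 mitochondrial carriers, 6 rose (median 0.42), where 1.84% of all genes did. Beside Slc25a1 and Slc25a20, these were Ucp3, an uncoupling protein homologue best known from muscle, from 16.5, 21.1, 26.4 and 22.1 CPM to 108, 43.2, 56.5 and 59.4 CPM (1.30 ± 0.17, SE, adjusted p = 0.0166), the NAD carrier Slc25a51 (0.77 ± 0.12, SE, adjusted p = 0.0229), Slc25a35 and Slc25a39. The muscle markers summed to 165.3 to 12576.7 CPM in WAT_30C and to 30.87 to 312.8 CPM in WAT_5C replicates 2 to 4, and their part in the Ucp3 values was not tested.

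With all 8 libraries the medians of these fuel lists were larger: 1.56 for pyruvate use, 1.35 for fatty acid oxidation, 1.14 for the TCA cycle, 0.96 for glucose uptake and glycolysis, 0.90 for lipid uptake and 0.84 for triglyceride assembly. Agpat2 was the only gene of those 6 lists that passed in that fit. Other medians with all 8 libraries were 0.82 for complex I, 0.99 for complexes III and IV and 0.71 for complex V. They were 1.20 for the mitochondrial genome, 0.87 for peroxisomal genes and 0.62 for mitochondrial carriers. For secreted factors the median was 0.46, for transcription regulators 0.41 and for clock genes 0.31 (0.05 without replicate 1). The 19 adipocyte genes, with a median of 0.83 in that fit and 0.23 without replicate 1, were also higher with replicate 1 included.

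**Figure D5:**
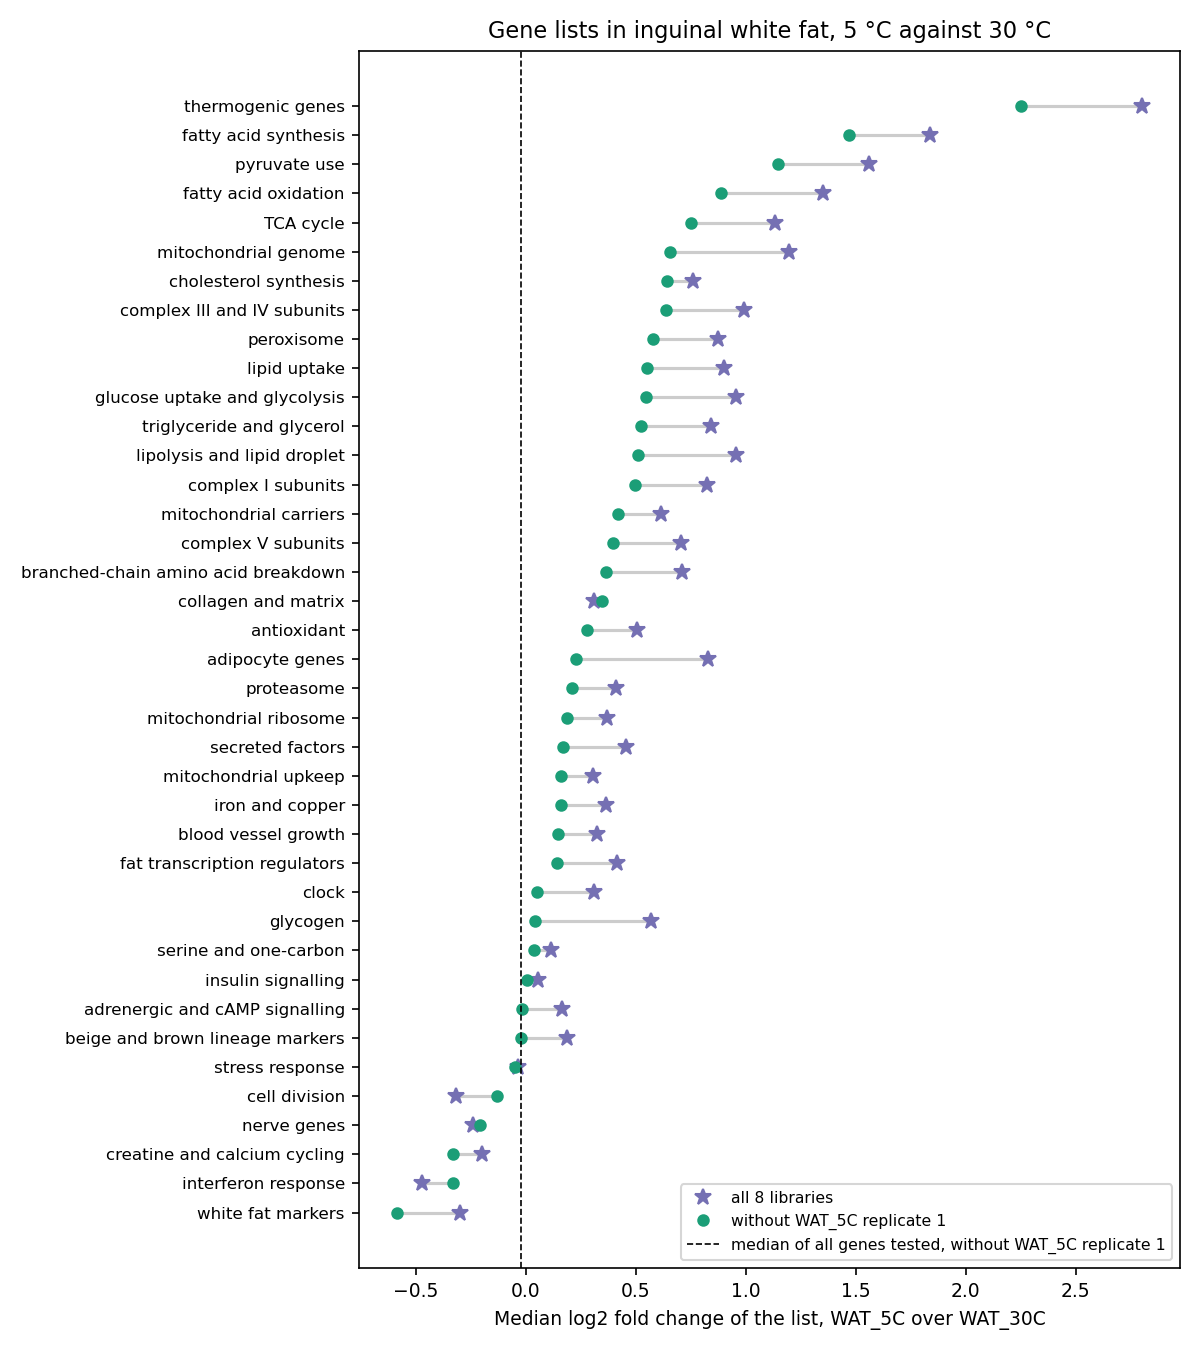
Median log2 fold change, 5 °C over 30 °C, of each of 39 gene lists with all 8 libraries (star) and without WAT_5C replicate 1 (circle). The dashed line is the median of all genes in the 7-library fit (-0.02). Thermogenic genes (2.25 without replicate 1) and fatty acid synthesis (1.47) are at the top and white fat markers (-0.59) at the bottom.

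Cholesterol synthesis had 6 of 23 genes higher (median 0.64), where 1.84% of all genes rose. With all 8 libraries edgeR called 0 of them and the median was 0.76, while DESeq2 called 12 higher and 1 lower. Pmvk, a kinase of the mevalonate steps, went from 29.5, 28.4, 39.2 and 36.1 CPM to 206, 65.0, 86.8 and 95.4 CPM (1.30 ± 0.16, SE, adjusted p = 0.0145), and Lss, which closes the sterol rings, from 37.1, 27.8, 30.3 and 34.7 CPM to 157, 63.7, 78.5 and 95.4 CPM (1.28 ± 0.15, SE, adjusted p = 0.0145). Nsdhl rose by 1.31 and Dhcr7 by 0.47 on the log2 scale. In serine and one-carbon metabolism the steps of serine synthesis went apart. Phgdh (ENSMUSG00000053398), its first enzyme, stood at 83.0, 121, 98.6 and 123 CPM and 118, 58.5, 41.0 and 47.1 CPM and fell by 1.13 ± 0.17 on the log2 scale (SE, adjusted p = 0.0248), while Psph, its last, rose from 20.0, 17.6, 22.6 and 22.0 CPM to 57.1, 33.4, 47.5 and 50.2 CPM (1.09 ± 0.15, SE, adjusted p = 0.0201). For Phgdh, WAT_5C replicate 1 lay among the WAT_30C libraries, and with it the log2 fold change was -0.69 ± 0.33 (SE, adjusted p = 0.299). Gldc, which breaks down glycine, rose by 1.21 ± 0.17 (SE, adjusted p = 0.0208).

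Further large rises came from genes outside the main routes. Aspg (ENSMUSG00000037686), an asparaginase, went from 4.08, 4.59, 12.5 and 3.20 CPM to 115, 37.7, 119 and 94.4 CPM (3.78 ± 0.55, SE, adjusted p = 0.0221). Ctsj, a cathepsin best known from placenta, was at 0 counts in WAT_30C replicate 1 and in WAT_5C replicate 1, at 0.0813 CPM or less in the other WAT_30C libraries, and at 1.92, 0.875 and 14.4 CPM in WAT_5C replicates 2 to 4. Its fitted log2 change was 7.68 ± 1.27 (SE, adjusted p = 0.0304), and WAT_5C replicate 4 was the highest of the 3. Slc25a48, a mitochondrial carrier, went from 0.872, 1.31, 1.23 and 0.764 CPM to 7.22, 3.39, 5.78 and 6.32 CPM, and Tmem79 from 5.78, 6.43, 6.43 and 5.04 CPM to 32.5, 17.7, 21.1 and 24.6 CPM. Neither overlapped between groups.

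The test called 53 genes lower. After Nnat, the largest fall among the genes of at least 5 CPM whose groups did not overlap was in Sctr, the secretin receptor, at 7.91, 8.16, 8.63 and 12.9 CPM and 14.0, 3.82, 1.83 and 3.80 CPM (-1.58 ± 0.30, SE, adjusted p = 0.0456). Mcam, an adhesion molecule of vessel walls, stood at 180.4, 237, 210.0 and 301 CPM and 298, 110.2, 106 and 136 CPM (-0.99 ± 0.18, SE, adjusted p = 0.0427), and Palm, paralemmin, at 48.6, 79.2, 51.4 and 64.0 CPM and 61.3, 34.8, 32.7 and 34.4 CPM (-0.85 ± 0.17, SE, adjusted p = 0.0490). For Sctr, Mcam and Palm, as for Heph and Phgdh, WAT_5C replicate 1 lay within or above the range of WAT_30C, so the groups separate only without it.

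Ltf, lactoferrin, stood at 132, 82.9, 77.1 and 70.7 CPM and 2.09, 30.0, 46.1 and 23.8 CPM and fell by 1.45 ± 0.28 on the log2 scale (SE, adjusted p = 0.0480). It is a mammary epithelium marker, while Cldn3, an epithelial tight junction gene of the same list, rose by 0.60 ± 0.11 (SE, adjusted p = 0.0464). The 18 mammary markers summed to 2179 to 2211 CPM in WAT_5C replicates 2 to 4 and to 1510 to 2417 CPM in WAT_30C, and their median log2 fold change was 0.23. Snorc (-1.01 ± 0.17, SE, adjusted p = 0.0302) and Lypd6b (-0.88 ± 0.18, SE, adjusted p = 0.0496) fell and were also low in WAT_5C replicate 1, at 0.172 and 0.927 CPM.

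Trbc2, a constant segment of the T cell receptor, stood at 129, 102, 147 and 119 CPM and 20.2, 74.9, 74.8 and 70.8 CPM and fell by 0.76 ± 0.12 on the log2 scale (SE, adjusted p = 0.0234). The T and NK cell markers lay lower as well. All 16 had fold changes below 0 (median -0.59), and 13 of 16 were lower at 5 °C without overlap, where 8.76% of all genes were. Their summed level was 1003 to 1443 CPM in WAT_30C and 751 to 940 CPM in WAT_5C replicates 2 to 4. None passed by edgeR, 13 had an unadjusted p under 0.05, and DESeq2 and limma-voom called 13 each. With replicate 1 included the median was -0.88 and edgeR called 0, with 2 at an unadjusted p under 0.05. From those 8 libraries DESeq2 called 0 and limma-voom 10. The pad holds a lymph node, and its part in these values was not tested. B cell markers overlapped between the groups, at 2232 to 2964 CPM summed in WAT_30C and 1870 to 2714 CPM in WAT_5C replicates 2 to 4. In WAT_5C replicate 1 they summed to 989.5 CPM, with 12 of the 13 lowest in it.

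Secreted factors gave 4 calls of 24 (median 0.17), all higher, where 1.84% of all genes rose. Nrg4 (ENSMUSG00000032311), a growth factor released by brown and beige fat, went from 18.4, 37.0, 25.3 and 25.4 CPM to 131, 64.3, 81.4 and 79.6 CPM (1.50 ± 0.21, SE, adjusted p = 0.0209 with 7 libraries, 1.75 ± 0.27 (SE, adjusted p = 0.0704) with 8). Fgf1 rose by 0.65 ± 0.13 (SE, adjusted p = 0.0480), Slit2, a secreted guidance factor, by 1.05 ± 0.21 (SE, adjusted p = 0.0493), and Mup3 is given above. With replicate 1 included, edgeR gave Fgf1 0.83 (adjusted p = 0.127) and Slit2 0.73 (adjusted p = 0.398) on the log2 scale. Bmp8b, a brown fat factor, stood at 0.74 CPM or less in every library (-0.67 ± 0.66, SE, adjusted p = 0.581).

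In the nerve list 1 of 17 genes rose by edgeR, where 1.84% of all genes did. At an unadjusted p under 0.05, 3 were higher and 4 lower. DESeq2 called 3 higher and 2 lower, and limma-voom 2 higher and 0 lower. The gene that rose by edgeR was Clstn3 (ENSMUSG00000008153), whose adipocyte isoform is known to aid innervation, from 13.2, 10.5, 14.6 and 14.0 CPM to 93.1, 21.9, 56.0 and 47.6 CPM (1.67 ± 0.28, SE, adjusted p = 0.0324). Isoforms were not counted apart. Bdnf (log2 fold change 0.77), a growth factor for nerves, did not pass, and Th, the enzyme that marks sympathetic nerves, held 0 counts over WAT_30C and 1 over WAT_5C. Of the clock genes, Bhlhe41 rose by 0.71 ± 0.12 (SE, adjusted p = 0.0304) and was the only call of 19 by edgeR, where 1.84% of all genes rose. WAT_5C replicate 1 was at 32.3 CPM for Bhlhe41, below all other libraries, and with it the log2 fold change was 0.46 (adjusted p = 0.427 by edgeR). At an unadjusted p under 0.05, 4 clock genes were higher, and DESeq2 called 3 and limma-voom 1. Of the antioxidant genes, Gclm and the glutathione transferase Gsta4 (0.87 ± 0.18, SE, adjusted p = 0.0498) rose by edgeR, 2 of 22, where 1.84% of all genes did. DESeq2 called 7 of them higher and 1 lower, and limma-voom 7 higher.

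The lists of collagen and matrix, blood vessel growth and cell division gave no call by edgeR. For collagen and matrix it called 0 of 26, with 8 higher at an unadjusted p under 0.05, 7 by DESeq2 and 5 by limma-voom (median 0.35). Col1a1 stood at 445, 749.5, 517 and 588 CPM and 824, 889.9, 1025 and 857 CPM, without overlap (0.68 ± 0.18, SE, adjusted p = 0.0875). Collagen genes outside that list did rise, such as Col9a2 (1.49 ± 0.20, SE, adjusted p = 0.0178) and Col16a1 (0.56 ± 0.07, SE, adjusted p = 0.0166), and both were lower in WAT_5C replicate 1 than in any other library. With replicate 1 included, edgeR gave Col9a2 1.09 (adjusted p = 0.487) and Col16a1 0.25 (adjusted p = 0.756) on the log2 scale. For blood vessel growth edgeR called 0 of 18, with 3 higher at an unadjusted p under 0.05, 3 by DESeq2 and 2 by limma-voom. The endothelial marker Pecam1 stood at 223, 227, 241 and 227 CPM and 230.0, 233, 215 and 218 CPM (-0.05 ± 0.07, SE, adjusted p = 0.692). For cell division edgeR called 0 of 20, with 6 lower at an unadjusted p under 0.05, 2 by DESeq2 and 3 by limma-voom, and Mki67 differed by -0.09 ± 0.22 (SE, adjusted p = 0.845). The macrophage marker Adgre1 differed by 0.53 ± 0.23 (SE, adjusted p = 0.222).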

How the data were processed

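The authors deposited raw read counts per gene for 16 libraries of 2 tissues, and the 8 WAT libraries were used. Per the submitters' processing notes, Trim Galore and TopHat were used, but the sources used here do not give their roles, versions, genome build, counting tool or strand setting. The labels give no batch. The deposited counts of genes passing filterByExpr (minimum count 10, minimum total 15) were fitted with the quasi-likelihood test of edgeR 4.0.16 after TMM scaling, with Benjamini-Hochberg adjustment over all genes tested and a threshold of 0.05. Separate fits were made with all 8 libraries and without WAT_5C replicate 1. CPM use the effective library sizes of the 8-library fit. Standard errors were derived from the fold change and its F statistic. The scripts were tested on simulated data. Members and lists were chosen with earlier results of these data known. Named were a set of 62 genes, up to 10 of the largest rises and falls per fit (at least 5 CPM, no overlap), and up to 4 members of each list by adjusted p. A few genes that this rule names are not reported here. Any other gene with a value was a list member that did not pass or was chosen after values were seen. Alternatives were another scaling, no filter, DESeq2 1.42.0, voom in limma 3.58.1, a threshold of 0.01, a replicate block and each library left out. Promoters are from RefSeq.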

Additional observations from a re-analysis of the deposited data

Results flagged for a closer look

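Among 4 libraries of a group, a value was singled out where its gap to the nearest library exceeded 0.829 of the group's whole range, the 95% critical value of Dixon's test. Of 350 groups of 4 examined, 41 values were singled out, 26 of them in WAT_5C replicate 1. The rule's rate of about 1 in 20 groups holds for unrelated groups. These genes share the same libraries and were chosen with earlier results known, and WAT_5C replicate 1 was already known to stand apart. The counts are therefore not a test against chance. WAT_5C replicate 1 was the far highest library of its group for Adipoq (2439 CPM), Adrb3 (884 CPM), Ckb (53.1 CPM), Ckmt2 (14.6 CPM), Cox6a2 (15.1 CPM), Dhcr7 (62.3 CPM) and Ebf2 (49.3 CPM). The same held there for Fitm1 (3.69 CPM), Gde1 (206 CPM), Gldc (27.6 CPM), Heph (87.4 CPM), Hephl1 (29.7 CPM), Lpl (12408 CPM) and Mcam (298 CPM). The same held there for Palm (61.3 CPM), Pygm (541 CPM), Scd2 (1641 CPM), Scd3 (204 CPM) and Sctr (14.0 CPM). In WAT_5C replicate 1 the summed markers of skeletal muscle (8509.6 CPM) and erythroid (342 CPM) were the far highest of the group. WAT_5C replicate 1 was the far lowest library of its group for Alpl (9.25 CPM), Bdnf (0.582 CPM), Col16a1 (13.4 CPM) and Trbc2 (20.2 CPM). In WAT_5C replicate 1 the summed markers of mammary epithelium (27.3 CPM) were the far lowest of the group. WAT_30C replicate 1 was the far highest library of its group for Ppp1r3b (28.1 CPM) and Snorc (6.09 CPM). WAT_30C replicate 1 was the far lowest library of its group for Ppargc1a (4.59 CPM). WAT_30C replicate 2 was the far highest library of its group for Pank1 (8.03 CPM). WAT_30C replicate 2 was the far lowest library of its group for Slc25a35 (27.0 CPM) and Slc25a39 (97.6 CPM). WAT_30C replicate 3 was the far highest library of its group for Aspg (12.5 CPM), Cidea (8.0 CPM), Elovl6 (414 CPM), Fasn (8179 CPM), Slc25a1 (405 CPM) and Slc2a5 (15.5 CPM). WAT_30C replicate 4 was the far highest library of its group for Pparg (154 CPM) and Sctr (12.9 CPM). WAT_5C replicate 4 was the far highest library of its group for Ctsj (14.4 CPM).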

How the results depend on the processing

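With all 8 libraries, 12 genes passed by edgeR, 82 after scaling to library totals, 25 with no filter on low counts, 1119 by DESeq2, 2268 by limma-voom with quality weights and 0 by edgeR at an adjusted p of 0.01, where 3430 had an unadjusted p under 0.05. Leaving out each library in turn gave 0 to 408. For the 7 libraries without WAT_5C replicate 1, DESeq2 called 2407 genes and limma-voom 1971, an adjusted p of 0.01 left 6, and leaving out each further library gave 11 to 847. The counts after scaling to library totals (313), with DESeq2's size factors inside edgeR (438) and with no filter (414) were within 1.5 times the 408. With the replicate number as a block, 0 genes passed from 8 libraries by edgeR (1789 at an unadjusted p under 0.05; DESeq2 and limma-voom were run without a block) and 499 from 7. Deviations from the group means of same-numbered libraries correlated at -0.525, -0.0893, -0.201 and -0.0158 with 8 libraries and at -0.017, 0.0627 and 0.269 with 7. Differently numbered libraries ranged from -0.302 to 0.55 with 8 and from -0.359 to 0.408 with 7. Deviations within a group sum to 0 and the libraries are few, so these values cannot decide whether the numbers pair the samples. These log2 fold changes changed sign, none of them past the threshold in the fit itself. With 8 libraries, Adipoq was 0.28 and -0.0676 by library totals, -0.0382 by limma-voom and -0.14 to 0.43 over the left-out libraries. Adrb3 was 0.29 and -0.0948 by library totals, -0.20 by limma-voom and -0.34 to 0.50 over the left-out libraries. Alpl was 0.0535 and -0.17 by library totals and -0.0149 to 0.20 over the left-out libraries. Ckb was 0.23 and -0.057 by library totals. Cldn3 was 0.20 and -0.28 with the block and -0.0788 to 0.60 over the left-out libraries. Cox4i2 was -0.0671 and -0.24 to 0.0571 over the left-out libraries. Ebf2 was 0.38 and -0.0492 to 0.54 over the left-out libraries. G0s2 was -0.10 and -0.67 to 0.20 over the left-out libraries. Pygm was -0.88 and -4.58 to 0.34 over the left-out libraries. With 7 libraries, Angptl4 was 0.23 and -0.0077 with the block and -0.049 to 0.52 over the left-out libraries. Bmp8b was -0.67 and 0.0311 by limma-voom. Ckb was 0.0867 and -0.0503 by library totals. Ebf2 was -0.0492 and 0.12 by limma-voom and -0.18 to 0.11 over the left-out libraries. Gpihbp1 was 0.11 and -0.043 by library totals and -0.069 to 0.28 over the left-out libraries. Lpl was 0.14 and -0.0052 by library totals, -0.0165 with the block and -0.0079 to 0.27 over the left-out libraries. Mki67 was -0.0866 and -0.24 to 0.12 over the left-out libraries. Pparg was 0.23 and -0.0042 to 0.53 over the left-out libraries. Among the named genes, leaving out each library of the 7 in turn ended a call 481 times and changed a sign 9 times, and the cause was not tested. Genes with a few counts, such as Th and Zic1, could not be tested at this depth.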

Other observations

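The genes in this part were chosen after their values were seen. Major urinary protein genes other than Mup3 also rose without replicate 1. Mup10 stood at 509.9, 516, 432 and 715 CPM in WAT_30C and 674, 1084, 1522 and 1877 CPM in WAT_5C (1.46 ± 0.23, SE, adjusted p = 0.0258), and Mup14 at 14.8, 11.3, 11.1 and 10.1 CPM and 15.3, 90.2, 36.1 and 89.6 CPM (2.60 ± 0.31, SE, adjusted p = 0.0145). For both, WAT_5C replicate 1 lay close to the WAT_30C libraries, while for Mup3 it lay with the other WAT_5C libraries. These copies share reads, so their separate values are uncertain.

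Some epithelial genes rose without replicate 1. The transcription factor Tfap2b stood at 20.6, 35.5, 25.8 and 18.7 CPM and 0.172, 112, 63.6 and 54.7 CPM (1.60 ± 0.29, SE, adjusted p = 0.0414), and Spdef at 3.02, 3.25, 2.77 and 2.55 CPM and 0.0215, 6.95, 8.15 and 4.75 CPM (1.18 ± 0.20, SE, adjusted p = 0.0306). With replicate 1 included, edgeR gave Tfap2b 1.20 (adjusted p = 0.548) and Spdef 0.78 (adjusted p = 0.658) on the log2 scale. Both were nearly absent from WAT_5C replicate 1, as the 18 mammary markers were (27.3 CPM summed). Those markers summed to 2179 to 2211 CPM in WAT_5C replicates 2 to 4 and to 1510 to 2417 CPM in WAT_30C, and their part in these rises was not tested.

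T cell genes beside Trbc2 fell. Lat, an adaptor of the T cell receptor, stood at 113, 81.2, 106 and 86.7 CPM and 16.7, 65.4, 55.6 and 55.9 CPM (-0.72 ± 0.13, SE, adjusted p = 0.0380), and the chemokine Ccl5 at 159, 134, 162 and 139.9 CPM and 20.8, 98.2, 108 and 87.6 CPM (-0.60 ± 0.10, SE, adjusted p = 0.0306). The 16 T and NK cell markers were lower in the same libraries, and their part in these falls was not tested.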
